A study of Mus musculus with 4 samples.

Results

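The genes described here belong to the type I interferon response, and they were followed across 4 microarrays of mouse dorsal raphe nucleus, a brainstem nucleus rich in serotonergic neurons. They were taken by name from the series' probe-to-gene table. Of 9 genes sought, 7 are listed there under their present symbols, Irf9 is listed under the older symbol Isgf3g, and no probe is named Isg15, so 8 of 16383 genes were read. Each of the 8 has 1 probe. The genes and the lists used beside them were chosen with earlier results of these data known.

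The 4 groups were stressed D2LR-KO mice, which lack the long form of the dopamine D2 receptor, stressed D2R-KO mice, which lack the receptor, stressed wild-type (WT) mice and non-stressed WT mice. All were C57BL/6J males of 10 weeks, and RNA of 5 mice was pooled for each array. Stressed mice swam for 6 min on each of 4 days and their tissue was collected 12 h after the fourth. There was 1 array per group and no non-stressed knockout, so the values carry no replicate error, the differences were not tested, and precision is limited by the 4 arrays. A difference that goes with the group cannot be told apart from one that goes with the pool, the dissection or the array.

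Type I interferons are secreted when a cell senses foreign or misplaced nucleic acid. They bind the receptor chains Ifnar1 and Ifnar2, whose kinases Jak1 and Tyk2 phosphorylate Stat2. Stat2 joins Irf9 in the complex ISGF3, which binds the interferon-stimulated response element (ISRE) in front of antiviral genes. In brain, microglia and endothelial cells are among the cells that carry out this response, and a low tonic level of it is seen without infection.

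The ISRE core was looked for in the promoter windows of the genes, since it is the sequence through which ISGF3 acts. The window runs from 250 bases before to 50 bases after each start site, and the core was spelled as GAAA, any 2 bases and GAAA, and searched on both strands. A window was given for 7 of the 8 genes, and 4 of the 7 hold the core, against 3.44% of all 32851 windows. The stretches below are those of the 4 genes that have both a core and a value on the arrays, from RefSeq on build GRCm38.p6, written 5′ to 3′ along the gene, with the core in capitals (here read on the opposite strand, as TTTC, any 2 bases and TTTC).
Ifit1, farther core, chr19:34640770-34640809, plus strand: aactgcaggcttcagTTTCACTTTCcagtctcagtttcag
Ifit1, nearer core, chr19:34640789-34640828, plus strand: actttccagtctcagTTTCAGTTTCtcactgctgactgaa
Ifit3, farther core, chr19:34583358-34583397, plus strand: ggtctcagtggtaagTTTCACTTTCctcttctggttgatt
Ifit3, nearer core, chr19:34583392-34583431, plus strand: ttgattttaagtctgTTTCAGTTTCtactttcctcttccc
Rsad2, chr12:26456548-26456587, minus strand: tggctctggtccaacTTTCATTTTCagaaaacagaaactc
Stat2, chr10:128270261-128270300, plus strand: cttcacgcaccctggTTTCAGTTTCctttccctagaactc
The cores lie 76 to 85 and 95 to 104 bases before the start in Ifit1, 113 to 122 and 147 to 156 in Ifit3, 111 to 120 in Rsad2 and 213 to 222 in Stat2. No core was found in the windows of Ifit2, Irf7 and Irf9. The gamma-activated site, spelled TTCNNNGAA and searched likewise, was found in 1 of the 7 genes, Ifit2, and in 8.30% of all windows. These matches are letters in a window and were not tested as binding sites.

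Values below are intensities from the authors' deposited table, on a linear scale on which each array has a median of 25. On the scale of the scanner the detection limit was 38.02 to 40.34, and 91.0% to 91.6% of an array's gene spots exceeded it. Tph2 and Slc6a4, which define serotonergic neurons, had 151.5 and 43.5 in stressed D2LR-KO, 264.6 and 89.6 in stressed D2R-KO, 10.7 and 6.8 in stressed WT and 31.4 and 11.6 in non-stressed WT, so both were under the array median of 25 in stressed WT. Drd2, the targeted gene, had 48.3 in stressed D2LR-KO, 20.9 in stressed D2R-KO, 43.8 in stressed WT and 26.8 in non-stressed WT, and where its probe lies relative to the deleted parts is not known here. For the repeated control spots, log2 differences between arrays had an SD of 0.10 to 0.20, a figure for spots that holds nothing of mice or labelling. Markers of choroid plexus and ependyma, 9 of 12 with a probe, were summed. The sum was 300.6 in stressed D2LR-KO, 132.2 in stressed D2R-KO, 5883.9 in stressed WT and 13220 in non-stressed WT. Most of both WT sums was Ttr, with 193.1, 20.3, 5720.2 and 12884 in the same order. The list's median log2 difference from non-stressed WT was -0.98 in stressed D2LR-KO, -0.88 in stressed D2R-KO and -0.86 in stressed WT. Against stressed WT it was only -0.20 in stressed D2LR-KO and -0.14 in stressed D2R-KO. The arrays thus differed widely in the markers of neurons and of ventricle-lining cells, and the part of this in the results was not tested.

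Stat2 and Irf9, the ISGF3 subunits measured here, are given first. Stat2 had an intensity of 43.2 in stressed D2LR-KO, 43 in stressed D2R-KO, 19.6 in stressed WT and 44.1 in non-stressed WT. Irf9 had 51.9 in stressed D2LR-KO, 46.1 in stressed D2R-KO, 23.6 in stressed WT and 53.3 in non-stressed WT. Both genes were thus low on the stressed WT array and close together on the other 3. Irf7, the factor that amplifies interferon production, had 10.8 in stressed D2LR-KO, 8.6 in stressed D2R-KO, 15.8 in stressed WT and 18.8 in non-stressed WT. It differed from Stat2 and Irf9 in that both knockout arrays lay below both WT arrays.

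The Ifit genes encode proteins with tetratricopeptide repeats that bind foreign RNA and hold back its translation. Ifit1 had 4.1 in stressed D2LR-KO, 4.7 in stressed D2R-KO, 5 in stressed WT and 6.1 in non-stressed WT. Ifit2 had 11 in stressed D2LR-KO, 10.9 in stressed D2R-KO, 5.2 in stressed WT and 15 in non-stressed WT. Ifit3 had 91.2 in stressed D2LR-KO, 67.3 in stressed D2R-KO, 40.9 in stressed WT and 99.7 in non-stressed WT. All 3 genes were highest in non-stressed WT, and Ifit2 and Ifit3 were lowest in stressed WT. The Ifit1 spot was 1.13 to 1.27 times the detection limit of its array, taken as 2 SD over the mean of its blank spots, so its 4 values are little above background. The same holds for Ifit2 in stressed WT, whose spot was 1.17 times the limit. At 47.1 that spot was dimmer than its own surround, at 49.6. Ifit3 and Ifit1 lie among near copies on chromosome 19, Ifit3b among them, and whether their probes separate these copies is not known here.

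Rsad2 and Mx1 went another way. Rsad2 encodes viperin, a radical SAM enzyme that makes an antiviral nucleotide, and had 64.3 in stressed D2LR-KO, 57.3 in stressed D2R-KO, 105.8 in stressed WT and 61.9 in non-stressed WT. Mx1, a dynamin-like GTPase gene, had 11.1 in stressed D2LR-KO, 10.9 in stressed D2R-KO, 29.9 in stressed WT and 10.1 in non-stressed WT. Stressed WT was the high array for both genes, and the other 3 arrays lay close together. Mx1 is listed as a transcribed pseudogene in the RefSeq table of C57BL/6J, a strain known to carry a defective Mx1, so its signal is that of a transcript and not of a working protein.

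**Figure D1:**
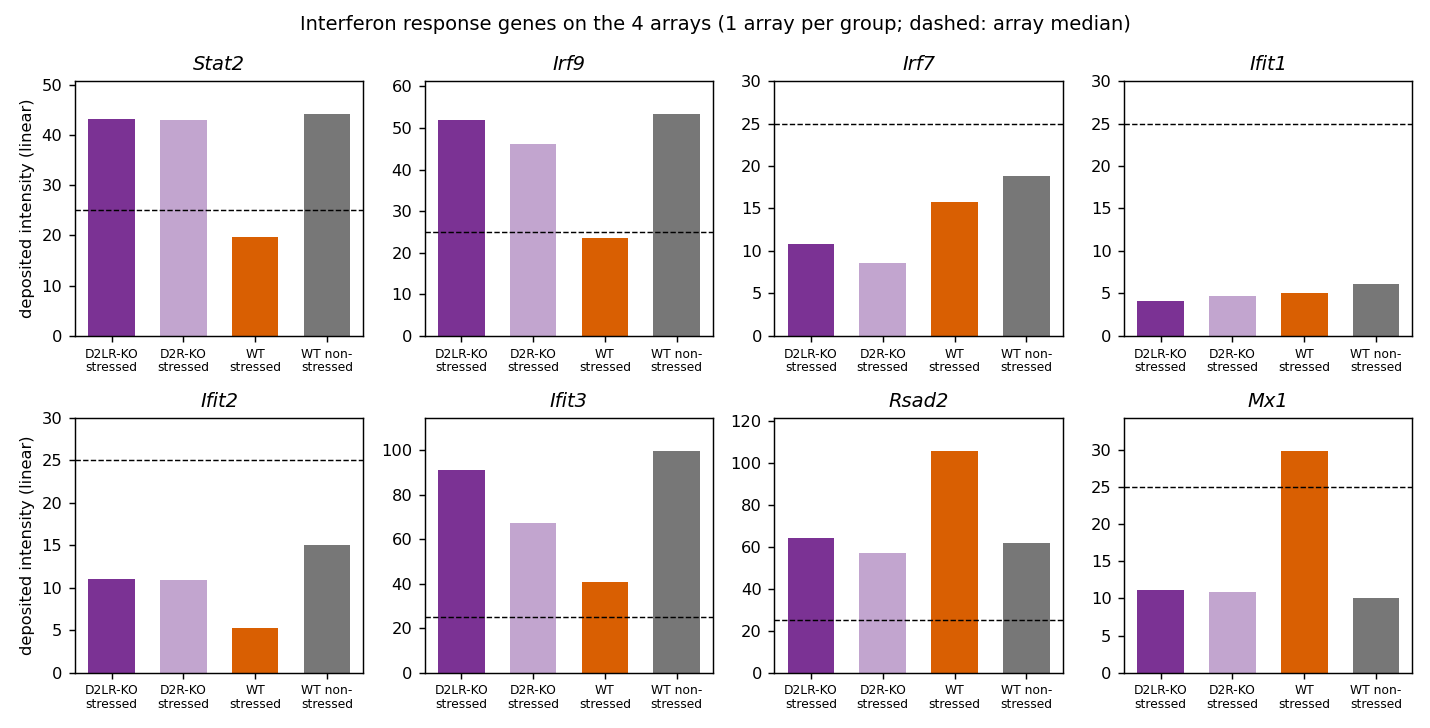
Deposited intensity (linear scale, array median 25 as a dashed line) of the 8 interferon response genes, 1 bar per array, with stressed D2LR-KO, stressed D2R-KO, stressed WT and non-stressed WT from left to right. Stat2, Irf9, Ifit2 and Ifit3 are lowest and Rsad2 and Mx1 highest on the stressed WT array, with 19.6 for Stat2 and 105.8 for Rsad2 there.

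Over the arrays, 6 of the 8 genes were highest in non-stressed WT and the other 2 in stressed WT, and 4 were lowest in stressed WT. Among all 14704 genes detected on 4 arrays, 18.5% were highest in non-stressed WT and 41% in stressed WT, and 38.5% were lowest in stressed WT. Being lowest on the stressed WT array was therefore common to genes at large, and on this scale being highest on the non-stressed array was not. With the brightness around each spot as the background, 3 of the 8 genes were highest in non-stressed WT, against 32.7% of all genes. The range of log2 signal over the 4 arrays had a median of 0.59 for the 8 genes and of 0.31 for the 7048 genes in the same span of mean signal. The widest range was that of Rsad2, 0.84, and the narrowest that of Ifit1, 0.09.

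For the comparisons the scanner values were background-corrected on the blank spots and quantile-normalized, and a difference is the log2 signal of the first array minus that of the second, with 50 added to the signal, which understates the differences of dim genes. A gene is counted as higher or lower from 1.5-fold. The 6 comparisons share arrays, so a gene extreme on one array enters several of them.

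In wild-type mice, stressed animals were compared with non-stressed ones, which addresses forced swimming within 1 genotype. Of the 8 genes 3 were lower and 2 higher, against 8.11% lower and 7.28% higher among 15643 genes compared. Ifit3 was 1.75-fold lower (log2 difference -0.81), Irf9 1.55-fold lower (-0.63) and Stat2 1.51-fold lower (-0.59). Rsad2 was 1.67-fold higher (0.74) and Mx1 1.51-fold higher (0.59), while Ifit2 stood at -0.39, Irf7 at -0.11 and Ifit1 at -0.08. The median over the 8 genes was -0.25, against 0.00 over all genes. Among genes in the same span of mean signal 5.34% were lower and 6.22% higher. The genes with an ISRE core thus did not share a direction, since Ifit3 and Stat2 were lower, Rsad2 was higher and Ifit1 was within 1.5-fold. Cmpk2, the protein-coding gene next to Rsad2 and also induced by interferon, was at 0.03, with an intensity of 107.3 in stressed WT and 122.3 in non-stressed WT (it was chosen after its values were seen).

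The brightness around a spot differed between these arrays in the same direction as the spot for 5 of the 8 genes, Ifit3 and Irf9 among them, and in the opposite direction for Ifit1, Ifit2 and Rsad2. In stressed WT the brightness around the Ifit3 spot was 60.7, for a spot of 103.8, and around the Irf9 spot 43.02, for a spot of 76.2. In non-stressed WT it was 188.1 around the Ifit3 spot, for a spot of 242.8, and 115.0 around the Irf9 spot, for a spot of 147.8. Non-stressed WT thus had the brightest surround for both genes as well as the brightest spot. Around the Rsad2 spot it was 74.7 in stressed WT, for a spot of 206.8, and 114.9 in non-stressed WT, for a spot of 165.4. With the brightness around each spot taken as the background, Ifit3 was at -0.23, Irf9 at -0.05 and Stat2 at -0.26, none of them past 1.5-fold, whereas Rsad2 was still past it at 0.82 and Mx1 stood at 0.33. Across all gene spots of an array the spot and its surround correlated at 0.876 to 0.958 on the log2 scale.

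**Figure D2:**
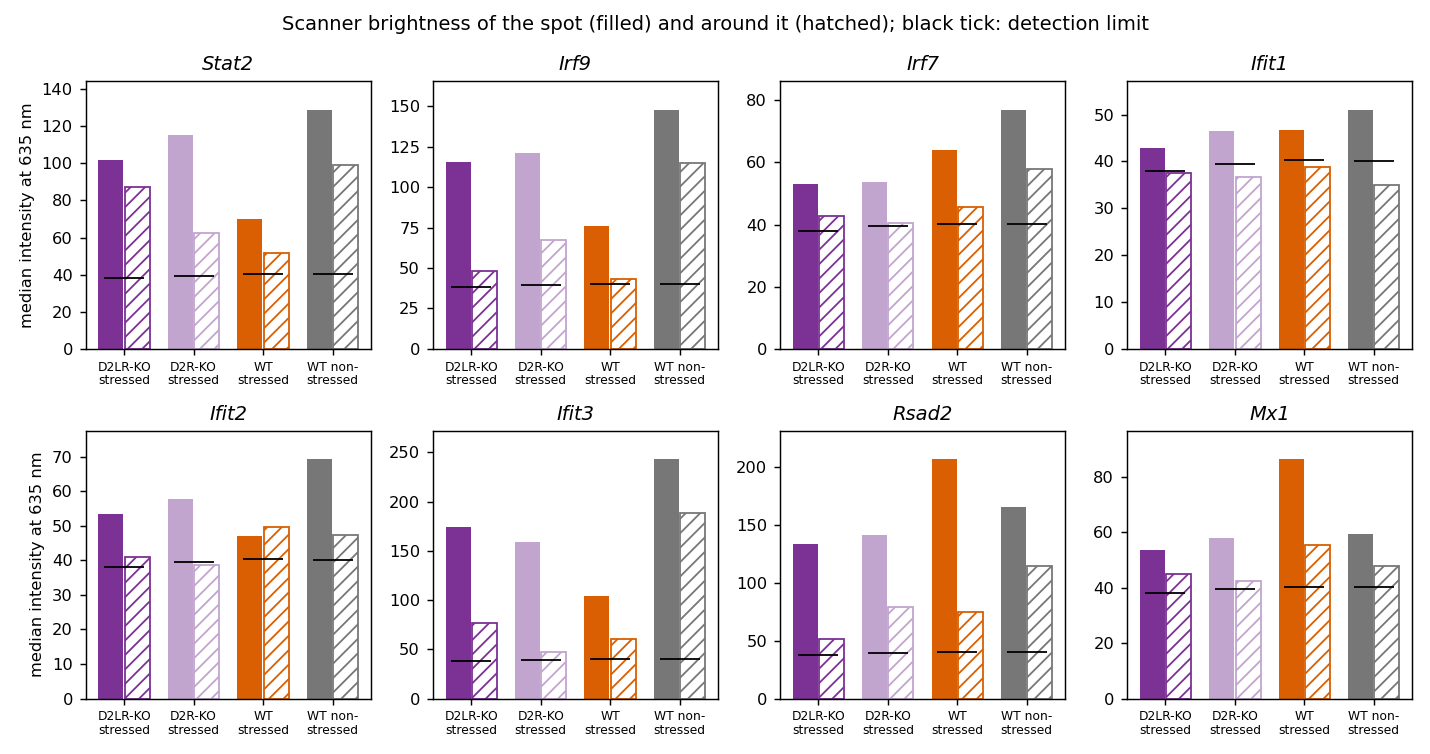
Median scanner intensity of the spot in the red channel (filled bars) and around it (hatched bars) for the 8 genes on each array, with stressed D2LR-KO, stressed D2R-KO, stressed WT and non-stressed WT from left to right and the detection limit as a black tick. The surround of Ifit3 reaches 188.1 in non-stressed WT, and the Ifit1 spots lie just above the limit.

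Stressed D2R-KO was set against non-stressed WT, a comparison that changes genotype and stress at once. None of the 8 genes was past 1.5-fold, where 0.577% of all genes were higher and 1.48% lower, and 7 of 8 lay below 0, against 47.5% of all genes. The lowest were Ifit3 at -0.45 and Irf7 at -0.34, followed by Irf9 at -0.15, Ifit2 at -0.13 and Rsad2 at -0.10. Mx1, at 0.03, was the gene above 0. The median was -0.12, against 0.01 over all genes. With the brightness around the spots as background Ifit3 turned to 0.31, Irf9 to 0.11 and Stat2 to 0.16, while Irf7 was at -0.18.

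None of the 8 genes was past 1.5-fold in stressed D2LR-KO mice set against non-stressed WT either, where 0.745% of all genes were higher and 1.41% lower. Irf7 was the lowest at -0.26, and the other 7 genes lay between -0.13 (Ifit2) and 0.05 (Rsad2). The median was -0.05, against 0.00 over all genes. Irf7 was thus below non-stressed WT in every stressed group, by 0.26 to 0.34 in the knockouts and by 0.11 in WT. With the brightness around the spots as background Ifit3 turned to 0.38 and Irf9 to 0.39.

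Among stressed mice, D2R-KO was compared with WT, which addresses the receptor. Rsad2 was 1.80-fold lower (-0.84), and it was the 1 gene of the 8 past 1.5-fold, against 8.64% lower and 9.31% higher among all genes. Mx1 was at -0.56 and Irf7 at -0.22, while Stat2 was at 0.54, Irf9 at 0.49, Ifit3 at 0.36, Ifit2 at 0.26 and Ifit1 at 0.02. The stressed WT array serves here as well as in the comparison within wild type, and a gene extreme on it has opposite signs in those comparisons. The median was 0.14, against -0.01 over all genes.

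In stressed D2LR-KO against stressed WT, Ifit3 was 1.65-fold higher (0.72) and Irf9 1.55-fold higher (0.63), and Rsad2 was 1.62-fold lower (-0.69). That is 2 genes higher and 1 lower of 8, against 8.72% higher and 8.20% lower among all genes. Stat2 stood just inside 1.5-fold at 0.58 and turned to -0.02 with the brightness around the spots as background, and Mx1 was at -0.56. The median was 0.12, against -0.01 over all genes.

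The comparison of stressed D2LR-KO with stressed D2R-KO had the smallest spread over all genes of the 6 (SD of the log2 differences 0.173). None of the 8 genes was past 1.5-fold, where 0.666% of all genes were higher and 0.333% lower. Ifit3 was at 0.37 in D2LR-KO relative to D2R-KO, Rsad2 at 0.15 and Irf9 at 0.14, and the other 5 genes lay between -0.03 and 0.08. In 8 other settings Ifit3 ranged from 0.07 to 0.45, and Stat2, at 0.03 here, from -0.43 to 0.04. The median was 0.06, against 0.00 over all genes.

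Scaling moved these shares. When the arrays were instead scaled to a common median, stressed WT had 421 genes higher and 2586 lower than non-stressed WT, where quantile normalization gave 1139 and 1268. For stressed D2R-KO against stressed WT the counts were 2900 higher and 588 lower under median scaling and 1458 and 1353 under quantile normalization, and for stressed D2LR-KO against stressed WT 1876 and 681 under the first and 1364 and 1283 under the second. For stressed D2LR-KO they were 54 higher and 451 lower against non-stressed WT (116 and 219 with quantile normalization), and 65 and 316 against stressed D2R-KO (104 and 52). From the deposited values, stressed D2R-KO had 254 genes higher and 203 lower than non-stressed WT, against 90 and 231 with quantile normalization. No member difference past 1.5-fold changed sign under these scalings, though in stressed WT against non-stressed WT Rsad2 was at 0.45, within 1.5-fold, and Ifit1 turned to 0.04 under median scaling.

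**Figure D3:**
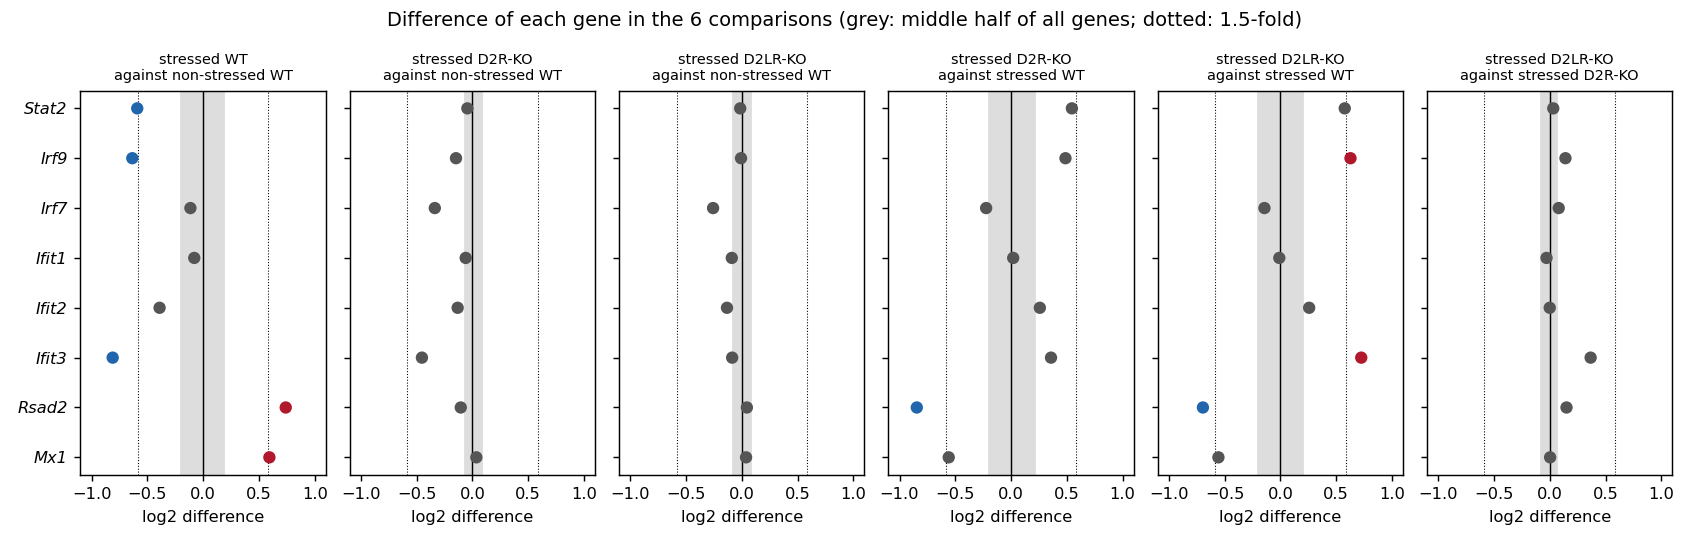
Log2 difference (first array minus second) of each of the 8 genes in the 6 comparisons, with 1.5-fold as dotted lines and the interquartile range of all genes as a grey band. Red points are at least 1.5-fold higher and blue points at least 1.5-fold lower, 2 and 3 of them in stressed WT against non-stressed WT, and none in either knockout against non-stressed WT.

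Within the set, profiles were compared after centring each gene's log2 signal on its mean over the 4 arrays. Stat2 and Irf9 were each other's nearest gene among the 8 (Euclidean distance 0.09), as were Rsad2 and Mx1 (0.20). These distances are given only with the blank spots as background. In stressed D2LR-KO against stressed D2R-KO, Stat2 ranged from -0.43 to 0.04 over 8 other settings and Irf9 from 0.06 to 0.28. Ifit3 lay nearest to Irf9 (0.23). Against the mean profile of the 8 genes, which spanned 0.16 from stressed WT to non-stressed WT, the nearest genes elsewhere on the arrays were Ntrk3, Wdfy3, Fam241a, Ugt1a6a and Cyb561a3, at distances of 0.02 to 0.03 over 4 arrays and among 11050 candidates. The mean profile joins genes that went opposite ways.

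The rest of the pathway was read from 10 lists fixed by function, in which 140 further genes had a probe. In stressed WT against non-stressed WT, 12 of 138 compared were higher and 7 lower (8.70% and 5.07%), near the shares of all genes, with a median of -0.05. Of 21 interferon genes listed, 7 had a probe, and Ifna13 was the 1 past 1.5-fold, with 44.3 in stressed WT and 15.6 in non-stressed WT (0.76). Ifnb1 had 3.0 in stressed WT and 1.8 in non-stressed WT, and Ifng had 4.9 in stressed WT and 5.1 in non-stressed WT, all far under the array median. Of 6 receptor genes Ifnar2, a chain of the type I receptor, was the 1 past 1.5-fold, with 81.7 in stressed WT and 44.3 in non-stressed WT (0.73). Ifnar1, the other chain, had 68.7 in stressed WT and 79.7 in non-stressed WT. None of 9 JAK and STAT genes was past 1.5-fold, Jak2 being at -0.58 and Jak3 at 0.52. Among 6 further interferon regulatory factors Irf1 was lower, with 22 in stressed WT and 59.4 in non-stressed WT (-0.79).

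Among nucleic acid sensors and their adaptors 2 of 19 were higher in stressed WT, Zbp1, a sensor of Z-form nucleic acid, at 1.09 and the adaptor Mavs at 0.62, and none was lower. Of all genes, 7.28% were higher and 8.11% lower in this comparison. Among negative regulators 2 of 17 were higher and 1 lower. Socs3, an inhibitor of JAK signalling, was at 1.34, with 931.1 in stressed WT and 458.1 in non-stressed WT, and Tnfaip3, which restrains NF-kappaB, was at 0.69. Usp18, which removes Isg15 from proteins and blocks the type I receptor, was lower at -0.73, with 14.9 in stressed WT and 42.7 in non-stressed WT. It was also the 1 gene of 5 in the Isg15 conjugation list past 1.5-fold.

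Other genes induced by type I interferon were split, with 4 of 49 higher and 1 lower in stressed WT and 31 of 49 below 0 (median -0.14). Epsti1 was at 1.13, with 104.1 in stressed WT and 38.8 in non-stressed WT, and Rtp4 at 0.87, beside Zbp1 and Usp18. Genes induced by interferon gamma had 3 of 18 higher, namely Ciita (0.95), the regulator of MHC class II genes, Gbp5 (0.76) and the chemokine Cxcl11 (0.72), and 1 lower, the GTPase Irgm1 (-0.66). The MHC class I and antigen processing list had 4 of 13 lower and none higher (median -0.29). These were Psme1 (-0.77), a proteasome activator subunit, B2m (-0.70), the MHC class I light chain, with 728.7 in stressed WT and 1511.7 in non-stressed WT, the peptide-loading protein gene Tapbp (-0.68) and the chaperone Calr (-0.59). With the brightness around the spots as background B2m turned to 0.60 and Tapbp to 0.43, and Psme1 and Calr stayed more than 1.5-fold lower.

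Of the 18 pathway differences named as past 1.5-fold in stressed WT against non-stressed WT, 8 were still past it in the same direction with the brightness around the spots as background and 13 with median scaling. With that background Ifna13 was at 0.34, Ifnar2 at 0.14, Irf1 at -0.31, Mavs at 0.19, Tnfaip3 at 0.16, Rtp4 at 0.27, Cxcl11 at 0.04 and Irgm1 at -0.20. Those still past 1.5-fold were Zbp1, Socs3, Usp18, Epsti1, Ciita, Gbp5, Psme1 and Calr. With median scaling Ifnar2, Mavs, Tnfaip3, Rtp4 and Gbp5 were within 1.5-fold, at 0.40 to 0.52.

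In stressed D2R-KO against non-stressed WT none of 139 further pathway genes was past 1.5-fold, where 2.06% of all genes passed it in either direction. The list of other type I induced genes had 35 of 50 below 0 (median -0.08), against 47.5% of all genes, led by Ifitm1 (-0.53), Rtp4 (-0.47), Ifitm3 (-0.46) and Bst2 (-0.44). The Ifitm proteins and Bst2, also called tetherin, hold back the entry and the release of enveloped viruses. In stressed D2LR-KO the same list had 25 of 49 below 0 (median 0.00), and Ifitm1 was the 1 of 138 pathway genes past 1.5-fold, at 0.60 (0.745% of all genes were higher). Ifitm1 had 263.0 in stressed D2LR-KO, 108.4 in stressed D2R-KO, 87.9 in stressed WT and 159.5 in non-stressed WT. It was at 1.13 in D2LR-KO relative to D2R-KO, the 1 of 138 pathway genes past 1.5-fold between the knockouts, and its difference from non-stressed WT in D2LR-KO turned to -0.08 with the brightness around the spots as background.

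Against stressed WT, 4 of 138 pathway genes were higher and 14 lower in stressed D2R-KO, and 10 of 137 were higher and 10 lower in stressed D2LR-KO. For D2R-KO these are 2.90% higher and 10.1% lower, against 9.31% and 8.64% of all genes, and for D2LR-KO 7.30% each way, against 8.72% and 8.20% of all genes. Rtp4 was at -1.34 in D2R-KO and -1.12 in D2LR-KO, Zbp1 was at -1.15 in D2R-KO and -1.02 in D2LR-KO, and Epsti1 was at -1.09 in D2R-KO and -0.93 in D2LR-KO. These are the genes that were high on the stressed WT array. B2m was at 0.93 in D2R-KO and 1.17 in D2LR-KO.

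**Figure D4:**
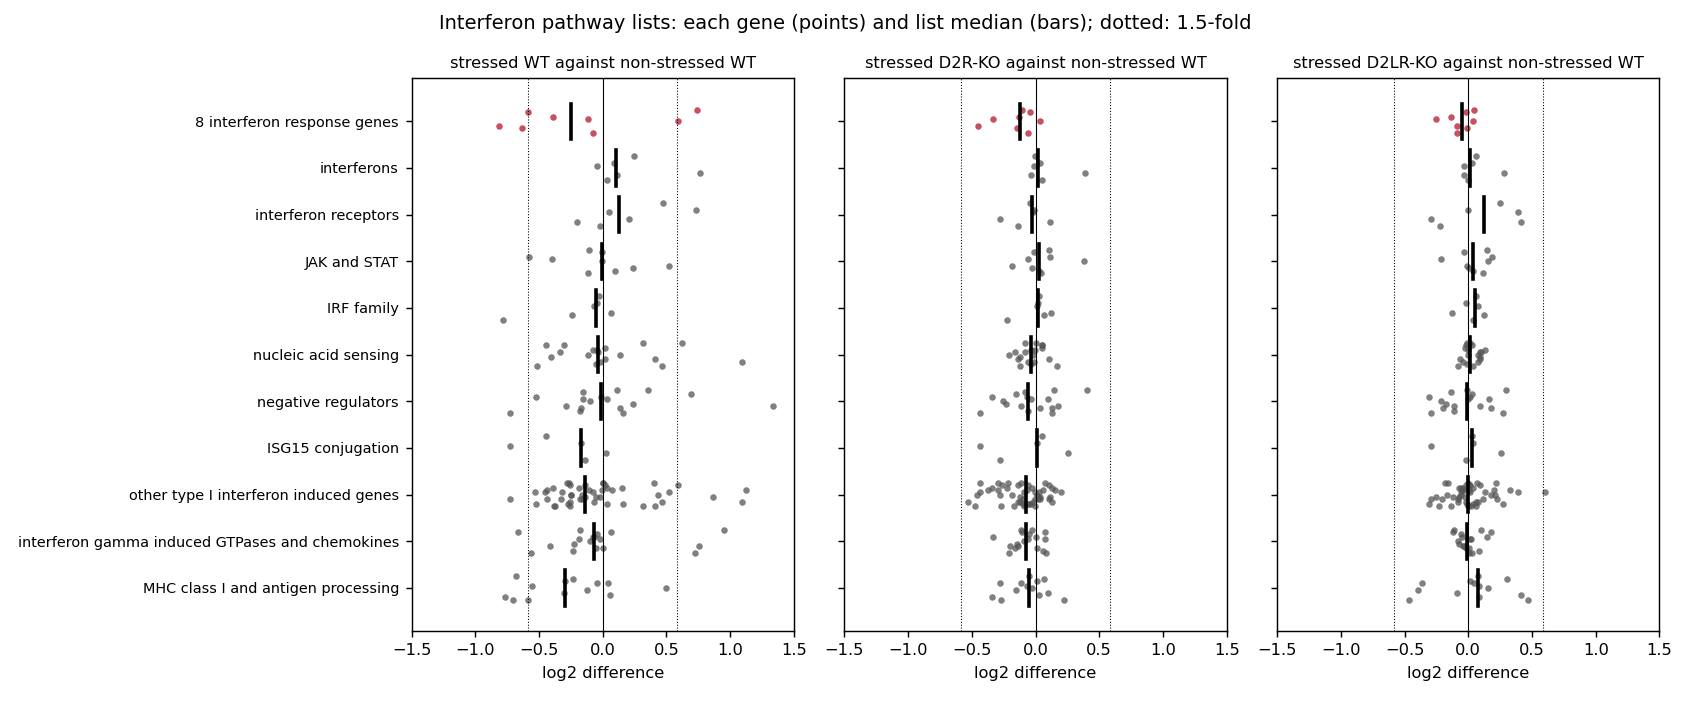
Log2 difference from non-stressed WT for the 8 interferon response genes (red) and the genes of 10 further pathway lists (grey), 1 point per gene, with the list median as a black bar and 1.5-fold as dotted lines, in 1 panel each for stressed WT, D2R-KO and D2LR-KO. Points spread widest in stressed WT, where the 8 genes have a median of -0.25, and none of the 8 passes 1.5-fold in either knockout.

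Markers of cells that can carry this response moved with the arrays. The microglia list, 14 of 15 with a probe and all 14 detected on each array, summed to 3366.3 in stressed D2LR-KO, 3113.0 in stressed D2R-KO, 1975.4 in stressed WT and 3060.8 in non-stressed WT. The endothelial and pericyte list, 16 of 16 and all detected, summed to 4120.9 in stressed D2LR-KO, 3121.5 in stressed D2R-KO, 1497.6 in stressed WT and 2751.4 in non-stressed WT. Both sums were lowest in stressed WT, as were Stat2, Irf9, Ifit2 and Ifit3, but so were the sums for some other cells. These had 16349.8 in stressed WT and 19273.6 in non-stressed WT for astrocytes, and 2248.1 in stressed WT and 2697.2 in non-stressed WT for serotonergic neurons. The oligodendrocyte sum of deposited values was 18000 in stressed WT and 19632 in non-stressed WT, again the lowest of the 4 arrays in stressed WT. On the log2 scale of the comparisons, stressed WT against non-stressed WT, the oligodendrocyte list had a median of 0.19, with 7 of 12 above 0. The microglia, endothelial, astrocyte and serotonergic lists had medians below 0 there, from -0.29 to -0.09. Not every list was lowest there. The plasmacytoid dendritic cell list, 8 of 8 detected on each array, summed to 184.4 in stressed D2LR-KO and 164.2 in stressed D2R-KO. It had 219.7 in stressed WT and 158.8 in non-stressed WT, so the sum was highest in stressed WT. Its defining markers Siglech, Ly6d and Tcf4 were not highest there. Siglech had 108.2 in stressed D2LR-KO, 93.4 in stressed D2R-KO, 91 in stressed WT and 80.9 in non-stressed WT. Ly6d, at 7.4, and Tcf4, at 1.1, were lowest in stressed WT. From stressed WT to non-stressed WT, 1 of the 8 genes was at least 1.5-fold higher in stressed WT, against 7.28% of all genes. The pituitary list had 8 of 10 genes with a probe, of which 5 were detected in stressed WT and 7 on each other array. Its sum was 158.7 in stressed D2LR-KO, 645.6 in stressed D2R-KO, 257.4 in stressed WT and 149.4 in non-stressed WT. It was thus highest in stressed D2R-KO. The list for lymphocytes and myeloid blood cells, 12 of 15 with a probe and 9 to 11 detected, summed to 156.6 in stressed D2LR-KO, 98.1 in stressed D2R-KO, 114.0 in stressed WT and 120.1 in non-stressed WT, with no value for Cd3e on 3 of 4 arrays. The list for meninges and fibroblasts had 11 of 11 genes with a probe. It summed to 3055.5 in stressed D2LR-KO, 1115.9 in stressed D2R-KO, 909.8 in stressed WT and 1670.0 in non-stressed WT. In the deposited values Ifitm1 had the same order of arrays. With the brightness around the spots as background, Ifitm1 in stressed D2LR-KO was at -0.08 against non-stressed WT. A link between Ifitm1 and this list was not tested. In pooled tissue, fewer cells of a type and less RNA per cell cannot be told apart, and the part of these markers in the results was not tested.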

How the data were processed

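RNA was amplified, labelled with Cy5 and hybridised to Toray arrays, per the labels' protocols. The file headers name 3 scans per array, without saying how these were merged. The scanner files hold the median intensity of each spot and of its surround, not background-subtracted, per the file headers. In the authors' deposited table, intensity equals, from the values, the spot median minus a constant (36.7 to 38.8) divided by a factor (1.51 to 2.05) per array. Spot medians were corrected with normexp on the 2736 blank spots (limma 3.58.1, R 4.3.3, offset 50), put on the log2 scale and quantile-normalized over 4 arrays. Probes were named by the series' table (16631 of 23473 with 1 symbol), and 3883 older symbols were updated by RefSeq; where a gene had several probes the brightest was kept, and 9 flagged spots were left out. A gene was compared where detected on at least 1 of 2 arrays. With 1 array per group there was no test. Named were all members, at most 4 further genes per list and comparison with the largest differences, and the 5 nearest profiles. The members and lists were chosen with earlier results of these data known. The procedure was tested on simulated data. Only bright probes were changed there, by at least 2-fold, so changes in dim genes, smaller changes and the surround were not covered. Tables were made in Python 3.11.15 with pandas 2.3.3.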

Additional observations from a re-analysis of the deposited data

How the results depend on the processing

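No paired analysis was possible because each group has 1 array. Of the 9 member differences past 1.5-fold, none changed sign in 8 other settings, and 3 stayed past 1.5-fold with the background around each spot, 6 with median scaling, 6 with cyclic loess, 7 with quantile normalization of only the 2 arrays, 8 from the deposited values and 9 in the other 3 settings. Over all 48 member differences, 11 had another sign with the background around each spot and 7 with median scaling.

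In stressed WT against non-stressed WT the member median of -0.25 went to -0.11 with the background around each spot, -0.50 with an offset of 16, -0.11 with symbols as the table spells them (without Irf9), and -0.39 without Rsad2 or without Ifit1, the last 3 chosen after seeing the data. The members higher numbered 1 with the background around each spot, median scaling, cyclic loess or without Rsad2, and 0 at 2-fold; those lower numbered 0 with the background around each spot and at 2-fold. In stressed D2R-KO against stressed WT the median of 0.14 went to 0.26 with an offset of 16, without Rsad2 or without Ifit1, and to 0.019 as spelled. There 2 members were higher and 2 lower with an offset of 16, 1 and 2 from the deposited values, and 0 lower with median scaling, without Rsad2 or at 2-fold. In stressed D2R-KO against non-stressed WT 1 member was lower with an offset of 16. In stressed D2LR-KO against stressed WT 1 member was higher with the background around each spot, cyclic loess, the 2 arrays alone or symbols as spelled, and 0 at 2-fold; 2 were lower with an offset of 16, and 0 with the background around each spot, median scaling, without Rsad2 or at 2-fold. Of 56 differences of further named pathway genes past 1.5-fold, 31 stayed past it with the background around each spot, 41 with median scaling, 46 with cyclic loess, 50 from the deposited values, 51 with the 2 arrays alone and 56 in the other 3 settings, and 3 reversed, all with the background around each spot: B2m (0.60) and Tapbp (0.43) in stressed WT and Ifitm1 (-0.085) in stressed D2LR-KO, each against non-stressed WT. Over all genes the background around each spot gave 1096 higher and 786 lower in stressed D2R-KO and 1082 and 743 in stressed D2LR-KO, each against non-stressed WT, and 468 and 386 in stressed D2LR-KO against stressed D2R-KO (otherwise 90 and 231, 116 and 219, and 104 and 52). An offset of 16 gave 1827 higher and 2033 lower in stressed WT against non-stressed WT (otherwise 1139 and 1268). The cause of these changes was not tested. Signals near the detection limit, as for Ifit1 and for Ifit2 in stressed WT, bound what can be read.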
